A study of Mus musculus with 6 samples.

Results

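The 10 genes described here encode receptors and adaptors that cytotoxic T cells share with natural killer (NK) cells: Klrk1, Klrd1, Klrc1, Klrc2, Klre1, Klrg1, Cd160, Cd226, Hcst and Nkg7. They were chosen by name from the 46517 genes of the count tables, by a rule that uses no measured value, though earlier results of these data were known. The series asked which transcripts of mouse CD8 T cells differ after activation with supernatant of basophils, a rare granulocyte, that had been kept with IL-3 or with PBS. Polyadenylated RNA of 3 libraries per group was sequenced, with 17377052 to 22174902 expected counts per library.

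Both groups were CD8 T cells of the inbred strain C57BL/6J, cultured from naive T cells of spleen and lymph nodes. Both were activated for 3 days on plates coated with antibody to CD3 (5 µg/mL), with antibody to CD28 (0.5 µg/mL) and IL-2 (100 units/mL). From day 1 to day 2 the PBS supernatant group received the medium of sorted basophils after a 2-day culture with IL-2 and PBS. The IL-3 supernatant group received medium of basophils cultured the same way but with 3 ng/mL IL-3 in place of PBS. Thus both groups met IL-2 and basophil products, the labels do not say that IL-3 was taken out of the medium, and T cells without any supernatant are not analysed here. Replicates are numbered in the labels, but separate mice or cultures are not stated, and p-values then speak only of how far these libraries scatter, part of which may be technical.

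NKG2D (Klrk1) is an activating lectin-like receptor that binds stress-induced relatives of MHC class I and signals through the adaptor DAP10 (Hcst). CD94 (Klrd1) pairs with NKG2A (Klrc1), which inhibits, or with NKG2C (Klrc2), which activates, and both pairs read the non-classical MHC molecule Qa-1. Activated CD8 T cells come to express such receptors, which tune killing and cytokine release set off through the T cell receptor.

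Of the 10 genes, 9 passed the filter on low counts and were tested, and 5 were lower with IL-3 supernatant: Klrk1, Klrd1, Klrc1, Klrc2 and Cd160. None was higher. Klre1, Cd226, Hcst and Nkg7 did not pass the test at an adjusted p of 0.05 (edgeR's quasi-likelihood test, Benjamini-Hochberg over 12407 genes). Across all genes tested 16.1% were called lower and 14.8% higher. The median log2 fold change (IL-3 minus PBS supernatant) of the 9 tested genes was -0.74, and that of all genes tested was -0.005. In the same 5 genes every IL-3 supernatant library lay below every PBS supernatant library, an arrangement found in 22.6% of all genes tested. These are bulk cultures, in which fewer cells carrying a transcript and less transcript per cell cannot be told apart.

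Levels between genes can be compared only per transcript length, here as TPM (the deposited values, scaled for length and library). With PBS supernatant the order was Nkg7 at 516 ± 12.4 TPM, Klrk1 at 127 ± 7.49, Cd160 at 83.9 ± 11.0, Klrd1 at 66.9 ± 15.5, Cd226 at 46.8 ± 5.66, Klrc1 at 46.4 ± 4.59, Hcst at 9.09 ± 1.59, Klrc2 at 4.005 ± 1.62 and Klre1 at 0.801 ± 0.177 TPM (SD, n = 3). The values of neighbours in this order overlapped for Cd160 and Klrd1 and for Cd226 and Klrc1. With IL-3 supernatant Klrk1 dropped behind Cd160 and Cd226: Nkg7 stood at 509 ± 38.4, Cd160 at 51.8 ± 4.51, Cd226 at 51.6 ± 3.02, Klrk1 at 46.9 ± 1.79, Klrc1 at 30.7 ± 4.42, Klrd1 at 29.7 ± 5.25, Hcst at 5.63 ± 1.66, Klrc2 at 1.79 ± 0.478 and Klre1 at 0.635 ± 0.280 TPM. There the values of Cd160 and Cd226, of Cd226 and Klrk1, and of Klrc1 and Klrd1 overlapped. Klrg1 was listed at 0 in every library.

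**Figure D1:**
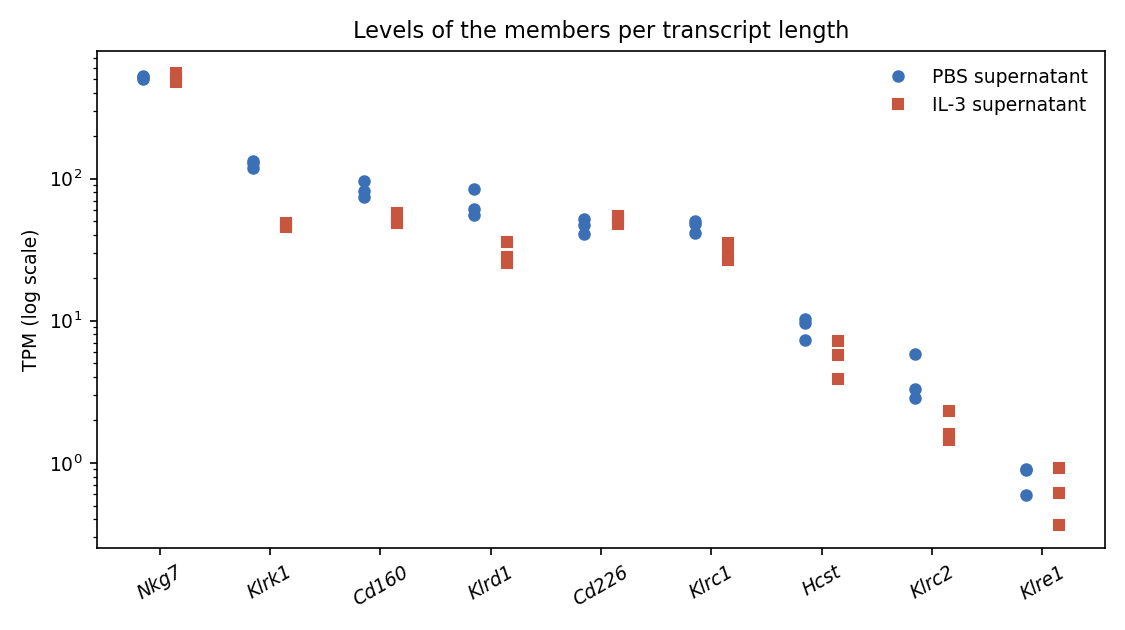
Deposited TPM (log scale) of 9 members in each library, ordered by their mean with PBS supernatant; circles are PBS and squares IL-3 supernatant libraries, and Klrg1, at 0 in all 6, is left out. Klrk1 moved from 127 to 46.9 TPM, to the level of Cd226, while Nkg7 stayed near 500 (502 to 525 and 475 to 550 TPM).

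Klrk1 (ENSMUSG00000030149, chromosome 6, 129610323 to 129623864, minus strand, GRCm38) encodes NKG2D. It stood at 113, 99.7 and 101 CPM (counts scaled to library size by edgeR's TMM method) in PBS supernatant replicates 1, 2 and 3, and at 35.4, 36.6 and 36.5 CPM in the IL-3 supernatant replicates. The groups were far apart and the 3 IL-3 supernatant libraries nearly equal. Klrk1 was 2.89-fold lower with IL-3 supernatant (log2 fold change -1.53, SE 0.07, 95% interval -1.68 to -1.39, edgeR adjusted p = 3.2e-11). It had the largest change in log2 among the 9 genes.

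Klrk1 gives rise to long and short forms of NKG2D, which in mouse differ in their first residues and in the adaptors they can use. The annotation has transcripts that begin translation at an outer or an inner start codon, and the first coding bases of 1 of each are shown so that the difference can be seen (GENCODE transcripts of GRCm38, capitals mark the inner start codon).
Klrk1-201: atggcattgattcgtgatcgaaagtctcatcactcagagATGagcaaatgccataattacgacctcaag
Klrk1-202: ATGagcaaatgccataattacgacctcaag
The outer start adds 39 coding bases. Isoform abundances were available in PBS supernatant replicate 2 only, so no comparison of groups can be made from them. In that library Klrk1-201, with the outer start, was estimated at 24.4 TPM (20.5% of the gene), and Klrk1-202 and Klrk1-205, with the inner start, at 65.6 and 24.4 TPM (75.7% together). These are the authors' estimates from reads that can fit several isoforms.

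Klrd1 (ENSMUSG00000030165, chromosome 6, 129591782 to 129598775, plus strand) encodes CD94, the shared chain of the NKG2A and NKG2C receptors. Its level was 36.9, 25.9 and 27.3 CPM in PBS supernatant replicates 1 to 3 and 12.5, 16.0 and 11.3 CPM with IL-3 supernatant. The groups did not overlap, and replicate 1 stood above the other PBS supernatant libraries. The decrease was 2.25-fold (log2 fold change -1.17, SE 0.16, 95% interval -1.53 to -0.81, edgeR adjusted p = 0.00024).

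Klrc1 (ENSMUSG00000030167, chromosome 6, 129666015 to 129678973, minus strand) encodes NKG2A, whose cytoplasmic tail carries inhibitory motifs. It was measured at 40.8, 29.6 and 31.0 CPM with PBS supernatant and at 20.8, 19.1 and 19.6 CPM with IL-3 supernatant. Replicate 1 was again the highest PBS supernatant library, and no IL-3 supernatant library reached the PBS range. Klrc1 was 1.71-fold lower (log2 fold change -0.77, SE 0.12, 95% interval -1.02 to -0.52, edgeR adjusted p = 8.1e-05).

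Klrc2 (ENSMUSG00000052736, chromosome 6, 129647496 to 129660689, minus strand) encodes NKG2C, the activating partner of CD94. At 7.29, 3.88 and 4.73 CPM with PBS supernatant and 2.63, 2.43 and 1.79 CPM with IL-3 supernatant, it was scarcer than Klrc1 in every library. The groups did not overlap, but PBS supernatant replicate 1 lay well above replicates 2 and 3. The decrease was 2.32-fold (log2 fold change -1.21, SE 0.27, 95% interval -1.79 to -0.63, edgeR adjusted p = 0.0025).

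Klrc1 and Klrc2 are near copies of each other, and their reads cannot always be told apart. Along the aligned coding sequences 83.1% of positions were identical, against at most 59.8% for any other pair of the 6 lectin genes (Klrk1, Klrd1, Klrc1, Klrc2, Klre1 and Klrg1). Of 50-base windows of the longest coding sequence, 24.2% of those of Klrc1 and 41.2% of those of Klrc2 occur unchanged in another gene, in both cases one of the Klrc genes. For the other 8 members that share was 0. The last 240 coding bases of an annotated transcript of each gene show this (GENCODE transcripts of GRCm38, capitals mark the 7 bases that differ).
Klrc1-202: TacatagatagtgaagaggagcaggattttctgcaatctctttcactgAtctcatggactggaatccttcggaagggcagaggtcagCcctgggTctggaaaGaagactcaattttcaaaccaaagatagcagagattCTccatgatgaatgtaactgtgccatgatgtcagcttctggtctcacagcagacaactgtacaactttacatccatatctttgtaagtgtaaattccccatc
Klrc2-201: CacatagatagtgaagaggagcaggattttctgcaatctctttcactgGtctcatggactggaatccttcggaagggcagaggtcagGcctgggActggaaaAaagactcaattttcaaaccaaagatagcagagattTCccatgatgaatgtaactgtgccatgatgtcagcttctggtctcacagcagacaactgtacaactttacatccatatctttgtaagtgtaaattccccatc
All 4 annotated isoforms of Klrc1 and 4 of the 6 of Klrc2 hold this stretch, the latter with 20.6% of the TPM of Klrc2 in PBS supernatant replicate 2. In that library the printed Klrc2-201 was estimated at 0 TPM. Klrc2-202, which gave the 50-base windows, was estimated at 0.0017% of Klrc2. The shares thus describe annotated transcripts and not the Klrc2 RNA measured here. The deposited expected counts of Klrc1 and Klrc2 held fractions in all 6 libraries, for example 733.77 and 131.23 in PBS supernatant replicate 1, while those of the other members were whole. The split between the 2 genes is therefore uncertain, and the level of Klrc2, the scarcer one, most of all. Summing Klrc1, Klrc2 and their relative Klrc3 removes the split: the sum was 48.5, 33.7 and 35.9 CPM with PBS supernatant and 23.5, 21.6 and 21.3 CPM with IL-3 supernatant. The sum fell by 0.83 on the log2 scale (SE 0.12, edgeR adjusted p = 0.00016), between those of Klrc1 and Klrc2.

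Klre1 (ENSMUSG00000050241, chromosome 6, 129577905 to 129585827, plus strand) encodes a lectin-like receptor of NK cells. Its counts were 10, 10 and 11 with PBS supernatant and 7, 15 and 9 with IL-3 supernatant, or 0.556, 0.554 and 0.627 CPM against 0.360, 0.675 and 0.459 CPM. The groups overlapped. The log2 fold change was -0.20 with a 95% interval from -1.25 to 0.84 (edgeR adjusted p = 0.80), so a decrease as large as that of Klrc1 lies inside the interval and was not detectable at this depth.

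Klrg1 (ENSMUSG00000030114, chromosome 6, 122270596 to 122282882, minus strand) encodes an inhibitory receptor for cadherins that marks terminal effector CD8 T cells. It had 0 counts in all 6 libraries and was not tested. Taking 3 counts as the limit, a count of 0 allows at most 0.135 to 0.173 CPM in a library, which covers counting error only.

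Cd160 (ENSMUSG00000038304, chromosome 3, 96798763 to 96829351, minus strand) encodes an immunoglobulin-type receptor that binds HVEM and MHC class I molecules. It was at 45.1, 51.7 and 57.6 CPM with PBS supernatant and at 29.0, 29.7 and 33.5 CPM with IL-3 supernatant. The groups did not overlap, and here PBS supernatant replicate 1 was the lowest library of its group. Cd160 was 1.67-fold lower (log2 fold change -0.74, SE 0.10, 95% interval -0.95 to -0.54, edgeR adjusted p = 1.3e-05).

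Cd226 (ENSMUSG00000034028, chromosome 18, 89176967 to 89272229, plus strand) encodes DNAM-1, an activating receptor for Pvr and Nectin2. Its values were 52.2, 50.6 and 59.98 CPM with PBS supernatant and 52.4, 59.8 and 59.9 CPM with IL-3 supernatant. The groups overlapped, and the log2 fold change of 0.08 had a 95% interval from -0.09 to 0.25 (edgeR adjusted p = 0.51). A decrease as large as that of Cd160 lies outside this interval.

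Hcst (ENSMUSG00000064109, chromosome 7, 30417712 to 30419854, minus strand) encodes DAP10, the membrane adaptor that NKG2D needs at the cell surface. It was measured at 1.61, 2.44 and 2.17 CPM with PBS supernatant and at 0.875, 1.62 and 1.28 CPM with IL-3 supernatant, from 17 to 44 counts. IL-3 supernatant replicate 2 just passed PBS supernatant replicate 1, so the groups overlapped. The log2 fold change was -0.71 with a 95% interval from -1.50 to 0.08 (edgeR adjusted p = 0.17). On log2 TPM with a pseudocount of 1 it passed the threshold with the filter (log2 fold change -0.62, limma adjusted p = 0.046) but not without it (limma adjusted p = 0.21).

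Nkg7 (ENSMUSG00000004612, chromosome 7, 43437073 to 43438249, plus strand) encodes a membrane protein of cytotoxic granules. It was the most abundant member at 223, 249 and 235 CPM with PBS supernatant and 225, 214 and 245 CPM with IL-3 supernatant. The ranges overlapped. The log2 fold change of -0.05 had a 95% interval from -0.18 to 0.08 (edgeR adjusted p = 0.60).

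**Figure D2:**
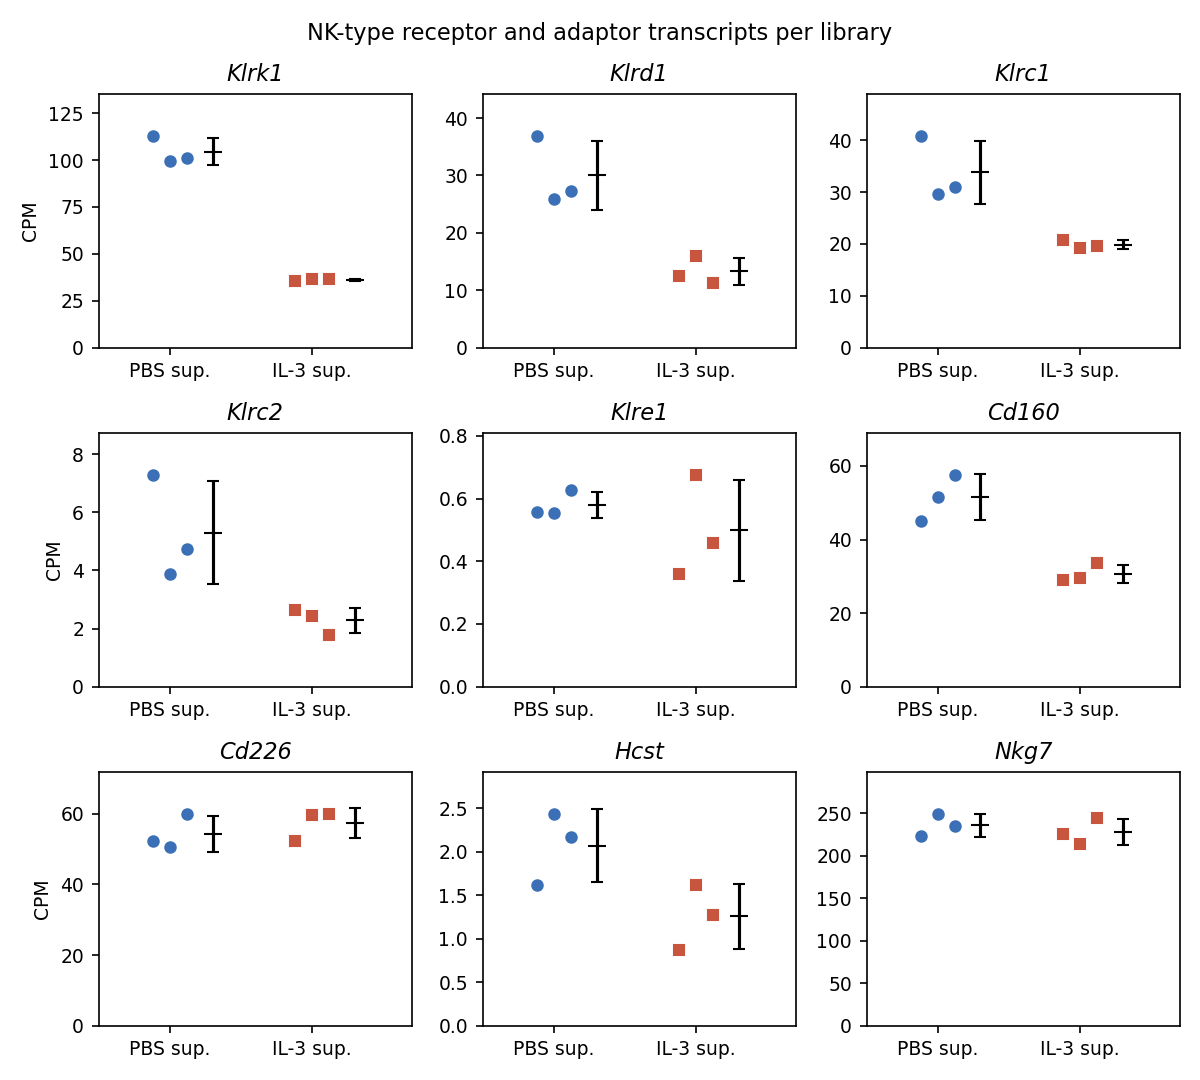
CPM of 9 members in each of the 6 libraries, with the mean and SD of 3 libraries beside the points (sup., supernatant; replicates 1, 2 and 3 from left to right; each axis starts at 0). Klrk1, Klrd1, Klrc1, Klrc2 and Cd160 have no overlap between groups. PBS supernatant replicate 1 is the highest library of its group for the first 4 of these and the lowest of its group for Cd160.

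**Figure D3:**
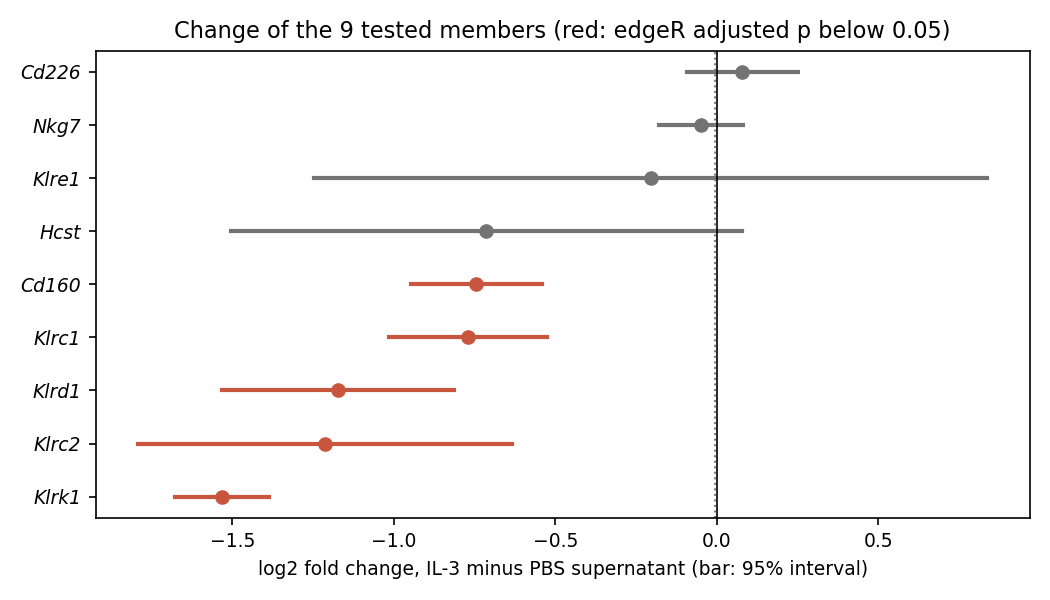
Log2 fold change (IL-3 minus PBS supernatant) of the 9 tested members with 95% intervals; red marks an edgeR adjusted p below 0.05 and the dotted line the median of all genes tested (-0.005). The 5 genes called lower lie between -1.53 and -0.74, and the intervals of Cd226 (-0.09 to 0.25) and Nkg7 (-0.18 to 0.08) span 0.

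Receptor chains and related receptors were then set against each other as ratios of TPM within each library. With 3 libraries against 3 the exact two-sided permutation test cannot go below p = 0.10, and none of the 6 ratios computed passed 0.05. The ratio of Klrk1 to its adaptor Hcst was 18.3, 11.5 and 13.4 with PBS supernatant and 11.9, 6.28 and 8.47 with IL-3 supernatant (14.4 ± 3.49 and 8.89 ± 2.85, SD, n = 3 each). The ranges overlapped (exact permutation p = 0.2, adjusted over the 6 ratios 0.24).

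The inhibitory chain Klrc1 stood at 0.594, 0.750 and 0.782 per Klrd1 with PBS supernatant and at 1.26, 0.753 and 1.16 with IL-3 supernatant. One IL-3 supernatant library lay inside the PBS range (exact permutation p = 0.2, adjusted 0.24). Klrc2, the gene of the activating chain, stood at 0.0584 ± 0.00952 and 0.0614 ± 0.0197 per Klrd1 (SD, n = 3 each, exact permutation p = 0.9, adjusted 0.9). Klre1, another lectin gene of the same cluster, stood at 0.0121 ± 0.00244 and 0.0210 ± 0.00703 (SD, n = 3 each, exact permutation p = 0.2, adjusted 0.24). These ratios use gene totals and not receptor-coding transcripts alone. In PBS supernatant replicate 2, the only library with isoform estimates, Klrc2-206, a retained intron form, held 39.2% of Klrc2. Klrc2-205, protein coding but without the 240-base stretch above, held 40.2%. For Klre1 the shares were 49.96% retained intron, 36.8% nonsense-mediated decay and 13.3% protein coding. The protein-coding Klrd1-202 held 91.99% of Klrd1.

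The ratio of Klrc1 to Klrc2 was 8.56, 14.5 and 14.4 with PBS supernatant and 15.2, 16.9 and 20.6 with IL-3 supernatant, with no overlap. Its exact permutation p was 0.1, the smallest the design allows, and 0.24 adjusted, and it carries the uncertainty of the shared reads. Cd226 and Tigit, activating and inhibitory receptors for the same ligands, gave ratios of 0.325, 0.318 and 0.386 with PBS supernatant and 0.395, 0.427 and 0.412 with IL-3 supernatant. These did not overlap either (exact permutation p = 0.1, adjusted 0.24). Which ratios were fully apart depended on the unit: on CPM in place of TPM, Klrk1 to Hcst, Klrc1 to Klrd1 and Klre1 to Klrd1 had an exact permutation p of 0.1, and Cd226 to Tigit of 0.2.

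Of 16 listed ligands of the member receptors 12 were in the tables and 5 were tested, of which 1 was higher and 1 lower. H2-T23, which encodes Qa-1, the ligand of CD94 with NKG2A or NKG2C, was at 129, 150 and 153 CPM with PBS supernatant and at 224, 216 and 227 CPM with IL-3 supernatant. It rose (log2 fold change 0.62, SE 0.06, edgeR adjusted p = 1.0e-06) with no overlap, against the direction of the 3 receptor chains. Pvr, a ligand of DNAM-1, fell from 32.8 ± 2.41 to 24.2 ± 1.22 CPM (mean ± SD of 3 libraries; log2 fold change -0.44, edgeR adjusted p = 0.0012). Nectin2, the other DNAM-1 ligand, was scarce at 0.278 to 0.997 and 0.856 to 2.06 CPM (log2 fold change 1.23, edgeR adjusted p = 0.10). The NKG2D ligand Ulbp1 (0.01, edgeR adjusted p = 0.96) and Tnfrsf14, which encodes HVEM, the ligand of Cd160 (-0.05, edgeR adjusted p = 0.88), did not pass the test, and the Klrg1 ligand Cdh1 stood at no more than 0.277 CPM.

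Among 22 tested genes on a list of adaptors, kinases and phosphatases for these receptors, 2 were higher and 11 lower, with a median log2 fold change of -0.19. The list also holds Jak1, a kinase of cytokine receptors. The 5 with the smallest p were Pik3cd, the lymphocyte catalytic subunit of the lipid kinase recruited by DAP10 (-0.68), the cytokine receptor kinase Jak1 (-0.45), the Src family kinase Fyn (-0.41), the protein kinase C gene Prkcq (-0.40) and the phospholipase gene Plcg1 (-0.39). These 5 changes were small beside that of Klrk1. They were ranked by p and not by size. Vav3, chosen after its value was seen, fell more than each of them (-0.84, edgeR adjusted p = 0.00029). Cd247 and Lcp2 were the 2 that rose (0.30 and 0.31; chosen after their values were seen). Tyrobp, which encodes DAP12, the other adaptor of short NKG2D and of NKG2C, had 0 to 2 counts per library (at most 0.111 CPM), and Fcer1g at most 0.257 CPM.

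Other receptors of cytotoxic lymphocytes went both ways. Of 14 tested, 4 were higher and 6 lower, with a median log2 fold change of -0.20. The SLAM family receptor Slamf6 fell from 27.4 ± 3.76 to 6.11 ± 1.42 CPM (mean ± SD of 3 libraries; log2 fold change -2.16, edgeR adjusted p = 9.8e-08). The costimulatory receptor Cd27 (-0.68) and the adhesion molecule Cd48 (-0.35) also fell, while the inhibitory receptor Lag3 (0.74) and Slamf7 (0.39) rose. The nectin-binding relatives of Cd226 gave -0.15 for Tigit (edgeR adjusted p = 0.096) and -0.04 for Cd96 (edgeR adjusted p = 0.76). Cd244, listed as Cd244a, stayed at or below 0.342 CPM and was not tested.

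Of 22 transcription factors of cytotoxic lymphocytes, all tested, 9 were higher and 9 lower, with a median of -0.04. The T-box factors, which are known to drive NK-type receptor genes, went opposite ways. Eomes stood at 37.9, 44.4 and 42.6 CPM with PBS supernatant and at 12.4, 11.1 and 10.9 CPM with IL-3 supernatant. Its level was 3.63-fold lower, with no overlap (log2 fold change -1.86, SE 0.10, edgeR adjusted p = 3.1e-10). Tbx21, which encodes T-bet, rose from 74.8 ± 4.31 to 99.4 ± 1.54 CPM (mean ± SD of 3 libraries; log2 fold change 0.41, edgeR adjusted p = 5.2e-05). Runx3 (0.29) and Zeb2 (0.74) rose as well. The 5 smallest p belonged to Gata3, a factor of type 2 T cells (3.06), the cytokine signal transducer Stat5a (1.248), Eomes, Nfil3, a factor of NK cell development (1.53), and Klf2, a factor of quiescence and trafficking (-3.91).

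Granule genes, the killing machinery to which Nkg7 belongs, went both ways. Of 18 tested, 6 were higher and 4 lower, with a median of 0.07. Gzmb rose from 4525 ± 110 to 8688.5 ± 226 CPM (mean ± SD of 3 libraries; log2 fold change 0.94, edgeR adjusted p = 2.3e-10), and Gzma from 0.390 ± 0.198 to 7.18 ± 2.16 CPM (log2 fold change 4.17, edgeR adjusted p = 2.0e-07). Srgn, the proteoglycan of the granule core, rose (0.80), and the protease gene Ctsw (-0.78) and Sytl2, a granule docking factor (-1.999), fell. The pore protein gene Prf1 gave 0.12 (edgeR adjusted p = 0.20).

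**Figure D4:**
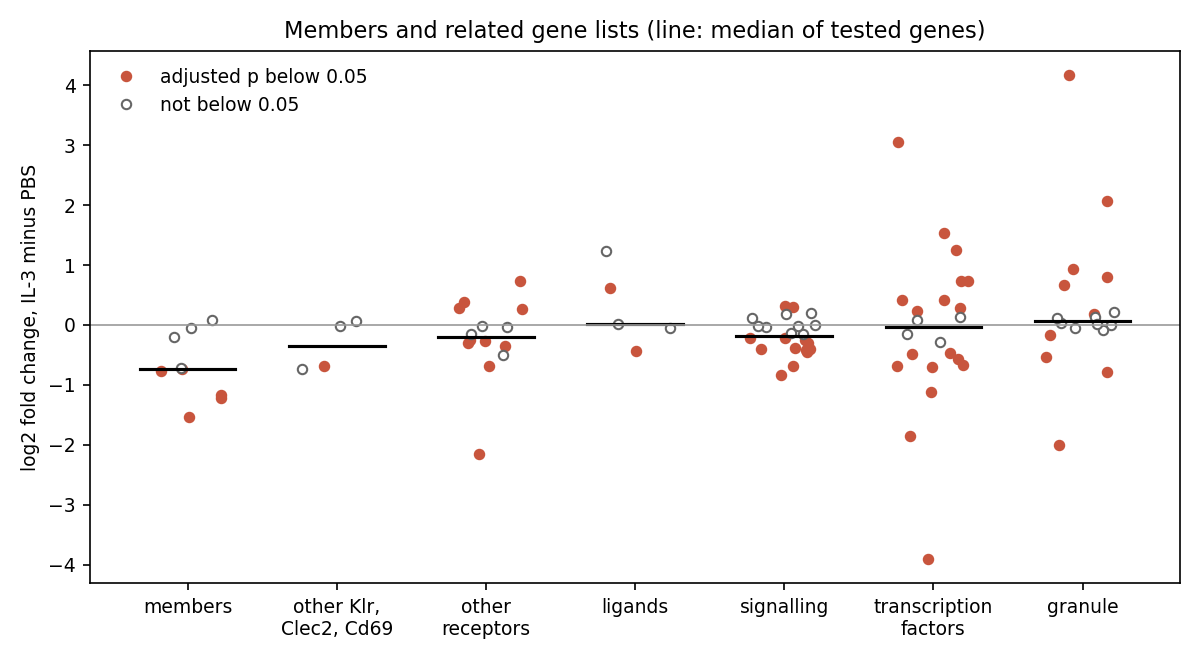
Log2 fold changes (IL-3 minus PBS supernatant) of the tested members and of the tested genes of 6 related lists; filled points passed an edgeR adjusted p of 0.05 and horizontal lines are medians. The members' median is -0.74, those of signalling and granule genes are -0.19 and 0.07, and points of the other lists lie on both sides of 0.

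Of the 10 members, 6 lie on chromosome 6, and 5 of these (all but Klrg1) lie in the NK gene complex, a cluster of lectin-like receptor genes. The stretch from the first to the last Klr gene, 128609227 to 131247362, held 120 genes of the tables, of which 74 were at 0 in all libraries and 17 were tested. Of the 12 tested genes that are no members, 3 were lower, 1 was higher and 8 did not pass the test. Cd69, an early activation antigen 348 kb from the start of Klrk1, fell from 140 ± 7.88 to 87.2 ± 7.59 CPM (mean ± SD of 3 libraries; log2 fold change -0.68, edgeR adjusted p = 9.0e-07). The genes BC035044 (-1.52) and BC064078 (-3.35, at most 1.60 CPM) fell too. Olr1, a scavenger receptor gene 117 kb from Klrk1, rose from 0.449 ± 0.1504 to 4.48 ± 1.85 CPM (mean ± SD of 3 libraries; log2 fold change 3.31, edgeR adjusted p = 6.8e-06).

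The tested genes on either side of the chromosome 6 members did not pass the test. Gabarapl1, an autophagy gene 35.6 kb before Klre1, gave -0.13 (edgeR adjusted p = 0.15), and Klri2, a lectin-like receptor gene 50.1 kb beyond Klrc1, gave -0.73 at 1.03 to 2.78 CPM (edgeR adjusted p = 0.13). The 4 called members thus lay between tested neighbours without a call, with the uncalled Klre1 at one edge. Of 26 other Klr and Clec2 type genes in the tables (Cd69 among them) 4 were tested and 1, Cd69, was lower. Klrb1c, which encodes the NK1.1 antigen, had 1 count in 1 library. Outside chromosome 6, Nfkbid and Sdhaf1, the tested genes on either side of Hcst, gave 0.30 (edgeR adjusted p = 0.0039) and -0.27 (edgeR adjusted p = 0.034). The start of Cd160 overlaps Pdzk1 by about 0.067 kb, and Pdzk1 gave 0.82 (edgeR adjusted p = 0.33). On either side of Nkg7, Siglecg gave 0.76 (edgeR adjusted p = 0.37) and Etfb 0.16 (edgeR adjusted p = 0.096).

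**Figure D5:**
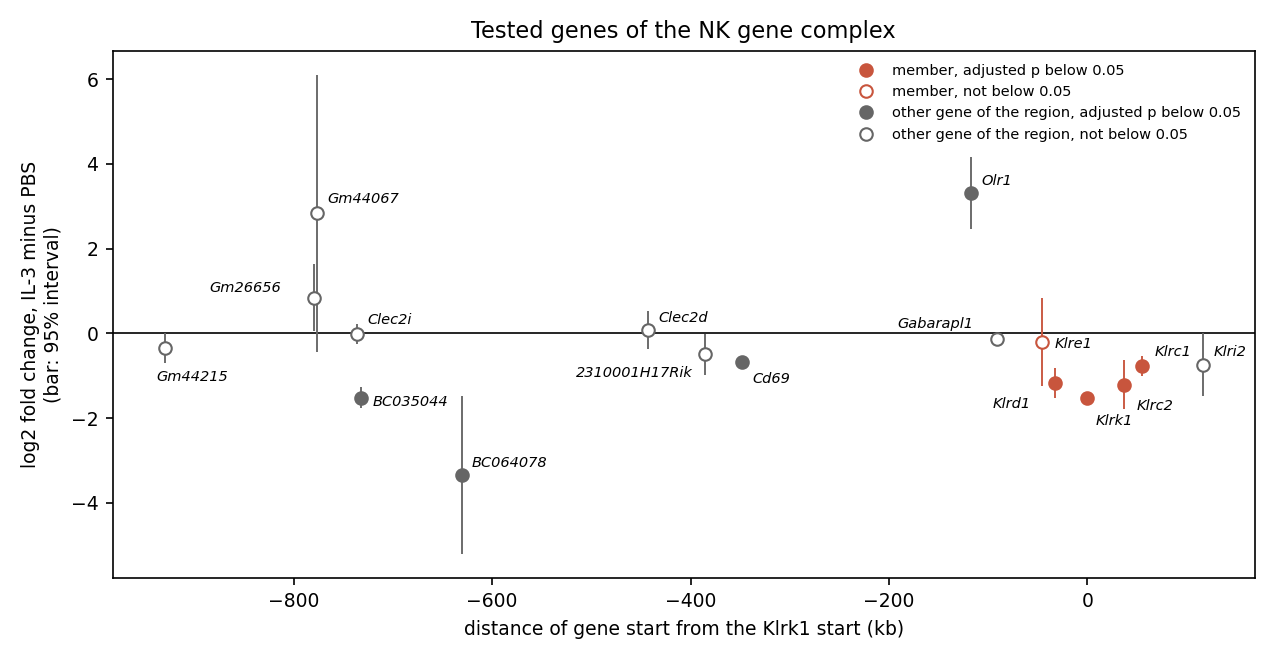
Log2 fold change (IL-3 minus PBS supernatant, with 95% intervals) of the 17 tested genes of the NK gene complex against the distance of their start from that of Klrk1 in kb; members are red and filled points passed an edgeR adjusted p of 0.05. Klrd1, Klrk1, Klrc2 and Klrc1 start within 55.1 kb of the Klrk1 start and all lie below 0, while Olr1, 117 kb away, stands at 3.31. Klre1, 46.0 kb away, did not pass the test (-0.20, 95% interval -1.25 to 0.84).

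Upstream sequences are shown for the 4 called genes that have an entry in the promoter table and for Nkg7, so that windows of genes with and without a call can be read side by side. Cd160 and Klrc2 each have a further window that is not printed. The windows of Klre1 and Hcst, which also had no call, are not printed either. RefSeq windows of GRCm38.p6, from 250 bases before to 50 bases after a RefSeq start, were at hand for 7 of the 10 genes. GENCODE, whose coordinates are given above, starts Nkg7 at 43437073 and Klrc2, on the minus strand, at 129660689. The printed Nkg7 and Klrc2 windows therefore reach into the gene as GENCODE annotates it. The RUNX core was searched as TGTGGT (reverse complement ACCACA) or TGCGGT (reverse complement ACCGCA) and the T-box core as AGGTGTGA (reverse complement TCACACCT), so that both strands were covered. The 250 bases before the start are printed on the gene's strand, with matches to either in capitals.
Klrk1, chr6:129623865-129624114, minus strand: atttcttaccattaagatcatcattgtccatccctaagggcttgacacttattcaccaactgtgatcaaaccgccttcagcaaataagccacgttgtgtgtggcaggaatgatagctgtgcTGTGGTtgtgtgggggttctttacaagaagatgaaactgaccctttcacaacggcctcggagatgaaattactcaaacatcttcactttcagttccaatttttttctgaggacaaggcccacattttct
Klrc1, chr6:129678974-129679223, minus strand: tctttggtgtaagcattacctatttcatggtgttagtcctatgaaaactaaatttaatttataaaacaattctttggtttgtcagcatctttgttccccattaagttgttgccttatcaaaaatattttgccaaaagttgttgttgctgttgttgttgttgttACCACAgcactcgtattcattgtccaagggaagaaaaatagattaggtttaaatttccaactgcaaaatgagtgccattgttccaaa
Klrc2, chr6:129660597-129660846, minus strand: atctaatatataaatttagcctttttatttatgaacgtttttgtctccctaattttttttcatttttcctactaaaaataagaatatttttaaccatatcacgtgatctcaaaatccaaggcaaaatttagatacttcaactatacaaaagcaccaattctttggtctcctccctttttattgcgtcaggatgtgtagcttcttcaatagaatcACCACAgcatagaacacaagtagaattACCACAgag
Cd160, chr3:96829352-96829601, minus strand: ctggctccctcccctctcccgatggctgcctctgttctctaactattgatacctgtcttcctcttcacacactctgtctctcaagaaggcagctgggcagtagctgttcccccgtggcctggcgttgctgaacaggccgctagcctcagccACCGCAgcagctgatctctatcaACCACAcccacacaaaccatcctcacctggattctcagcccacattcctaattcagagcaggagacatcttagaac
Nkg7, chr7:43436888-43437137, plus strand: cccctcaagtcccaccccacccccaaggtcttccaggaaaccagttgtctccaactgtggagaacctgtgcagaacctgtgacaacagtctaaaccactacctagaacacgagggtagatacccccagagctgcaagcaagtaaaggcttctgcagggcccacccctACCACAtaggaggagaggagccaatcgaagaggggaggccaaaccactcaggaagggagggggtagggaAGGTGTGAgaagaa
A RUNX core was found in 6 of the 7 genes, all but Hcst, and in 22.4% of the 32851 windows of the table (25.0% of genes). Its first base lay 129 bases before the RefSeq start in Klrk1, 87 in Klrc1, 36 and 9 in Klrc2, 99 and 76 in Cd160 and 83 in Nkg7. Both Klrc2 matches lie inside the gene as GENCODE annotates it. In the Cd160 window that is not printed, a RUNX core lay 101 bases before that window's start. The T-box core was found in 1 of the 7, Nkg7, and in 1.28% of windows (1.48% of genes). In Nkg7 it lay 14 bases before the RefSeq start, which is inside the gene as GENCODE annotates it. The shorter core GGTGTG (reverse complement CACACC), which is part of the longer one and in Cd160 overlaps a RUNX match, was in 3 of the 7 (Cd160, Hcst and Nkg7) and in 19.0% of windows (21.4% of genes). A match says only that these letters occur in the window.

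Across the 6 libraries, the log2 CPM of Klrk1 was correlated with that of 9730 genes, and genes named as models or clones were then left out. Of the rest, Tox (Pearson r = 0.999), Tmem154, Stk39, Ssbp3 and Nin followed Klrk1 most closely. Tox, which encodes a transcription factor of T cell exhaustion, had a log2 fold change of -1.59, and the other 4 had values from -1.10 to -0.65. The 6 points of each correlation fall into 2 clusters, the groups, and share the 6 libraries, so r is given as a description only.

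The label of the cells was checked on marker lists. The 6 CD8 T cell genes were abundant, summing to 1884 to 2036 CPM with PBS supernatant and 1126 to 1224 CPM with IL-3 supernatant, and all 6 were lower (median log2 fold change -0.50). Cd8a fell from 850 ± 41.1 to 377 ± 15.5 CPM (log2 fold change -1.17, edgeR adjusted p = 5.7e-11) and Cd3e from 177 ± 5.98 to 105 ± 3.38 CPM (log2 fold change -0.75, edgeR adjusted p = 1.9e-08; SD, n = 3 each). These genes moved in the direction of Klrk1, and their part in its decrease was not tested. Markers of NK cells, the other cell type known for these receptors, were near 0: the 10 genes summed to 0.501 to 0.942 CPM with PBS supernatant and to 0.204 to 1.24 CPM with IL-3 supernatant, none passed the filter, and Ncr1 and Klrb1c had 1 count each in the 6 libraries. The member genes summed to 514 to 520 CPM with PBS supernatant and 379 to 409 CPM with IL-3 supernatant.

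Markers of other cells were low, and the genes named here were chosen after their values were seen. Of 4 CD4 T cell genes 3 were tested, with Foxp3 lower (7.34 ± 2.38 to 0.163 ± 0.104 CPM, SD, n = 3 each) and Zbtb7b higher. Trdc, a gene of gamma-delta T cells, stood at 0.630 to 1.13 CPM (log2 fold change -0.04, edgeR adjusted p = 0.96). Of 8 basophil and mast cell genes 4 were at 0 in all libraries, and Kit, the only one tested, was lower (2.76 ± 0.478 to 0.612 ± 0.179 CPM). Of 6 B cell genes 2 were tested and Ebf1 was higher, and of 9 monocyte and neutrophil genes 1 was tested and did not pass. The summed level was at most 20.03 CPM for the CD4 list and at most 8.96 CPM for each of the others. The part of these changes in the members' results was not tested.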

How the data were processed

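RNA was captured by poly(A) and libraries made with an Illumina TruSeq kit, per the labels' protocols. Expected counts per gene were deposited by the authors for each of 6 libraries. TPM were deposited by the authors per gene for 5 libraries and per isoform for PBS supernatant replicate 2, where they were summed per gene. Per the submitters' processing notes, RSEM 1.2.12, Bowtie2 2.2.0, edgeR 3.20.9 and the build GRCm38 were used; their roles, the annotation and the strand setting are not stated in the sources used here. Expected counts divide reads that fit several genes, so near copies such as Klrc1 and Klrc2 share them.

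Totals of expected counts were 17377052 to 22174902 per library. Counts were rounded and tested in R 4.3.3 with edgeR 4.0.16 (filterByExpr, TMM, robust dispersions, quasi-likelihood F test, 1 term for group, all 6 libraries, Benjamini-Hochberg over 12407 genes, threshold 0.05). CPM use TMM-scaled library sizes. Symbols matched 46005 of 46517 identifiers, and coordinates are those of GENCODE on GRCm38. Ratios used exact permutation tests in SciPy 1.17.1. The first to last Klr gene on chromosome 6 was taken without Klrg1 and Klrg2, which lie apart. No pair of libraries of the same group agreed within sampling noise. The fit was tested on simulated data.

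The members and lists were chosen with earlier results of these data known. Named were all members, and of each list up to 5 called genes with the smallest p and a panel given whatever the result. Also named were up to 5 called neighbours and the next tested genes. The 5 genes most correlated with Klrk1 were taken among those with average log2 CPM of at least 2, without genes named as models or clones. Alternatives were other normalizations, filters, thresholds, a replicate block, DESeq2 1.42.0, limma 3.58.1 (voom, and log2 TPM with pseudocounts of 1 and 0.1), each library left out, and, added after seeing the data, a fit without CT010467.1, a gene that took a large share of 1 library, and the summed Klrc genes. Sequences were read with Biopython 1.88 and figures drawn with matplotlib 3.10.9. Protein sequences were not used here. Some marker results are not reported here.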

Additional observations from a re-analysis of the deposited data

How the results depend on the processing

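Under 19 alternatives Klrk1 (log2 fold change -1.56 to -1.42), Klrd1 (-1.32 to -0.998) and Cd160 (-0.83 to -0.66) kept their direction and stayed below an adjusted p of 0.05. Klrc1 and Klrc2 did so except on log2 TPM without a filter (limma adjusted p = 0.063 and 0.16), where 3 members were called lower in place of 5. Klre1 was left out by a filter of 1 CPM and so has no value there. Hcst was called on log2 TPM with pseudocounts of 1 and 0.1 (limma adjusted p = 0.046 and 0.048), but not on log2 TPM without a filter (limma adjusted p = 0.21). Nkg7 changed sign without PBS supernatant replicate 2 (0.005) and without IL-3 supernatant replicate 2 (0.0070), and ranged from -0.10 to 0.0070 with each library left out, never past the threshold. Of all genes, 928 were higher and 937 lower against a fold of 1.2, 1114 and 1030 on log2 TPM without a filter, and 1217 higher at an adjusted p of 0.01. Against a fold of 1.2, 14 in place of 22 genes of the other lists were higher. In the NK gene complex the neighbours called higher went from 1 to 2 without a filter, and ranged from 1 to 2 when a library was left out (2 without PBS supernatant replicate 2, PBS supernatant replicate 3 or IL-3 supernatant replicate 1); 5 in place of 3 were lower without a filter. The log2 ratio of Klrc2 to Klrd1 changed sign from 0.03 to -0.0093 on CPM, to -0.046 without the library of summed isoforms (PBS supernatant replicate 2), to -0.014 without PBS supernatant replicate 3 and to -0.21 without IL-3 supernatant replicate 1, and ranged from -0.21 to 0.24 with each library left out. With the shorter T-box core 3 in place of 1 members had a match. The cause of these changes was not tested. Deviations from the group means of libraries with the same replicate number correlated at -0.15, 0.05 and 0.25 for replicates 1, 2 and 3. Libraries with unlike numbers were not compared, so these values cannot show whether the numbers pair libraries. The main fit used no pairing because the labels do not state any. With the replicate block 5 members were lower and 0 higher (Klrk1 -1.53), 1634 genes were higher and 1776 lower, and 2 neighbours were higher. The median log2 fold change of all genes lay between -0.0053 and 0.020 under these settings. Depth limits Klre1 and Klrg1, and 3 libraries per group limit the ratios.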
